A study of Sus scrofa with 8 samples.

Results

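CD8A, GZMB, GZMH and CCL5 are genes that cytotoxic lymphocytes, the T cells and NK cells that kill infected or foreign cells, express strongly. They were followed in whole blood of 4 pregnant and 4 non-pregnant sows (Sus scrofa), all of the fifth parity and bled 14 days after insemination, so that both groups had been inseminated. Each sow gave 1 single-colour Agilent array, and the arrays lay on 2 slides, with 2 pregnant and 2 non-pregnant sows on each. The design text speaks of related pairs of sows, and the labels do not say which sows form a pair. The 4 genes were chosen with their values on these arrays known, their lower level in pregnant sows included, so this difference is described here without a test. They are 4 of 2382 genes that could be named, and every probe whose RefSeq transcript accession mapped to one of them was taken. That gave 8 of the 43603 probes on the array, 2 for each gene. All 8 probes were well above background on all 8 arrays, none was saturated, and all 8 passed the filter on dim probes.

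CD8A encodes the alpha chain of CD8, the co-receptor that steadies the contact of cytotoxic T cells with MHC class I. In pigs it is also carried by NK cells and by part of the helper T cells, so it marks more than the cytotoxic T cells. GZMB and GZMH encode granzymes, serine proteases that are stored in granules and pass into the target cell through pores made by perforin. Granzyme B cuts after aspartate and sets off apoptosis, and granzyme H, as known from human NK cells, has a chymotrypsin-like preference. In the Sscrofa11.1 gene table GZMB and GZMH are on the same chromosome and are listed with 0 genes between them. Their positions on it were not compared. CCL5 encodes the chemokine RANTES, which T cells and NK cells release from stores and which platelets hold as well, and which draws in T cells and monocytes.

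Signals are given as log2 of the scanner's processed intensity minus the 75th percentile of the same array, so a value of 0 equals that percentile. A level can be compared between arrays for 1 probe and not between probes. The 75th percentile of the intensity ran from 142 to 296 in pregnant sows and from 175 to 247 in non-pregnant sows. Pregnant replicate 2 had the lowest one and stood apart from the other arrays: the lowest correlation between 2 arrays over 26481 probes was 0.870 with it and 0.946 without it. The fold changes of the 4 genes, the relation between the granzymes and the medians of lists that it moved are therefore given without that sow too. Defining genes of T cells were present, since all 8 measured genes of the T cell receptor complex, CD3D, CD3E, CD3G and CD247 among them, were well above background on all 8 arrays. The blood was not sorted, so fewer cells of a type and less RNA per cell cannot be told apart.

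Over all 26481 probes tested, limma's test with Benjamini-Hochberg adjustment called 0 probes lower and 0 probes in either direction (0% each), and the smallest adjusted p was 0.525. Unadjusted, 202 lower and 406 higher probes had a p under 0.05. None of the 4 genes was therefore called on either of its probes (0 of 8). Every one of the 8 probes had a log2 fold change below 0, where 56.5% of all probes did. The highest pregnant value lay under the lowest non-pregnant one in 3 of the 8 probes, where this held for 0.672% of all probes. With 1 probe a gene it held for CD8A alone of the 4, and for 0.66% of all named genes. These counts follow in part from how the genes were chosen, and nothing is read from them. The values below are on the processed signal. With normexp, another background correction, all 4 log2 fold changes were above 0, at 0.21 for CD8A, 0.02 for GZMB, 0.11 for GZMH and 0.29 for CCL5, and with the local background subtracted they were -0.52, -0.89, -0.69 and -0.59 for the same genes.

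CD8A had the smallest spread within groups of the 4 genes. Its brighter probe stood at 2.77, 2.48, 2.42 and 2.21 in pregnant replicates 1 to 4, against 3.15, 2.99, 2.97 and 3.02 in non-pregnant replicates 1 to 4. The groups did not overlap, and the non-pregnant sows lay within 0.18 of each other while the pregnant sows spread over 0.57. The group means were 2.47 ± 0.23 in pregnant and 3.03 ± 0.08 in non-pregnant sows (SD, n = 4 each), a log2 fold change of -0.56 ± 0.23 (SE), or 0.677 times the non-pregnant level. The dimmer CD8A probe stood at -1.18, -1.10, -1.27 and -0.84 in pregnant sows, against -0.67, -0.28, -0.54 and -0.35 in non-pregnant sows. It did not overlap either and gave -0.64 ± 0.23 (SE). Without pregnant replicate 2 the brighter probe gave -0.57, on slide 1 alone -0.47 and on slide 2 alone -0.66.

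GZMB differed most on average and, on the brighter probes only, varied most among the pregnant sows. Its brighter probe stood at 2.05, 1.38, 3.32 and 1.05 in pregnant replicates 1 to 4, against 3.20, 1.98, 2.89 and 3.43 in non-pregnant replicates 1 to 4. Pregnant replicates 2 and 4 were below every non-pregnant sow, whereas pregnant replicate 3 was above all but non-pregnant replicate 4, so the groups overlapped. The means were 1.95 ± 1.00 in pregnant and 2.87 ± 0.64 in non-pregnant sows (SD, n = 4 each), a log2 fold change of -0.92 ± 0.51 (SE), or 0.527 times. The dimmer GZMB probe, at 1.95, 1.42, 2.91 and 1.28 in pregnant and 2.80, 2.09, 2.66 and 3.21 in non-pregnant sows, gave -0.80 ± 0.40 (SE). The slides held different sows, so slide and sow cannot be told apart, and a difference between slides was not tested. The log2 fold change of the brighter probe was -0.36 ± 0.50 (SE) on slide 1 and -1.48 ± 0.63 on slide 2. With array weights, which gave pregnant replicate 3 the most weight, it was 0.18. The GZMB log2 fold change without pregnant replicate 2 was -0.73.

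GZMH had 1 pregnant sow far below the others. Its brighter probe stood at 3.54, 3.55, 2.09 and 3.61 in pregnant replicates 1 to 4, against 3.99, 4.65, 3.06 and 3.93 in non-pregnant replicates 1 to 4. Pregnant replicates 1, 2 and 4 lay close together, pregnant replicate 3 lay below every other sow, and non-pregnant replicate 3 was the lowest of its group. The means were 3.20 ± 0.74 in pregnant and 3.91 ± 0.65 in non-pregnant sows (SD, n = 4 each), a log2 fold change of -0.71 ± 0.44 (SE), or 0.611 times. The dimmer GZMH probe, at 3.03, 2.53, 1.47 and 3.18 in pregnant and 3.37, 4.04, 2.53 and 3.05 in non-pregnant sows, gave -0.69 ± 0.44 (SE). The groups overlapped on both probes. The GZMH log2 fold change was -0.34 without pregnant replicate 3, -0.46 without non-pregnant replicate 2. Leaving out pregnant replicate 2 gave -0.83. With array weights it was -1.59. The slides gave -0.72 on slide 1 and -0.70 on slide 2.

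CCL5 was a bright probe in every sow. It stood at 5.50, 6.56, 5.91 and 5.38 in pregnant replicates 1 to 4, against 6.46, 7.09, 6.01 and 6.05 in non-pregnant replicates 1 to 4. Pregnant replicates 1, 3 and 4 were below every non-pregnant sow, and pregnant replicate 2 was above 3 of them. The means were 5.84 ± 0.53 in pregnant and 6.40 ± 0.50 in non-pregnant sows (SD, n = 4 each), a log2 fold change of -0.57 ± 0.35 (SE), or 0.675 times. The dimmer CCL5 probe, at 2.87, 3.33, 3.17 and 2.87 in pregnant and 3.69, 4.43, 3.46 and 3.34 in non-pregnant sows, gave -0.67 ± 0.29 (SE), and on it the groups did not overlap, by a narrow margin between pregnant replicate 2 and non-pregnant replicate 4. Non-pregnant replicate 2 was the highest sow on both probes. The CCL5 log2 fold change was -0.34 without that sow and -0.81 without pregnant replicate 2. The slides gave -0.53 on slide 1 and -0.60 on slide 2.

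**Figure D1:**
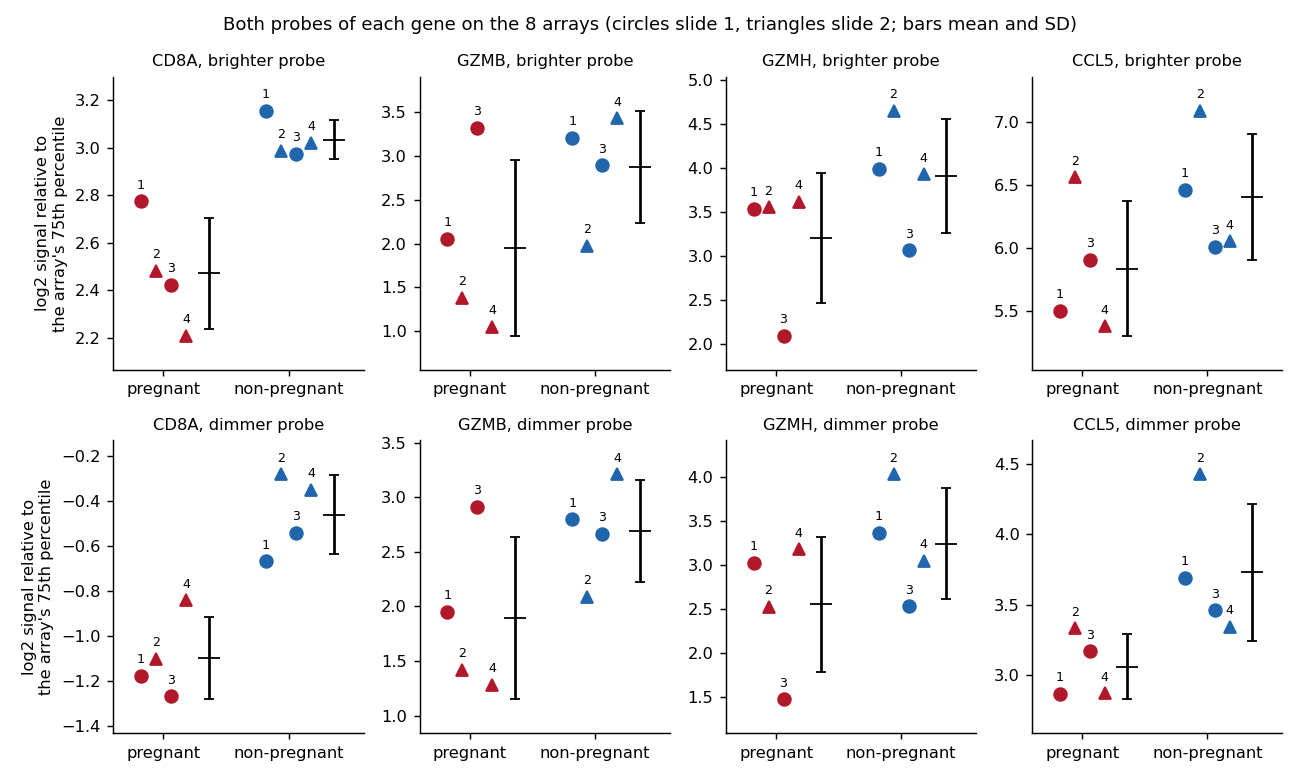
Log2 signal relative to the array's 75th percentile (vertical axes) of both probes of CD8A, GZMB, GZMH and CCL5 in the 4 pregnant and 4 non-pregnant sows. Points are sows, numbered by replicate, with circles for slide 1 and triangles for slide 2, and bars give the mean and SD. The groups are apart on both CD8A probes and on the dimmer CCL5 probe, and pregnant replicate 3 is high for GZMB and low for GZMH.

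The probes of a gene were compared after the group mean was taken from each value, so that the difference between groups plays no part. For GZMB the 2 probes put the 8 sows in the same order around their group means (Pearson r = 0.99, exact permutation p = 0.00174, which is the smallest these arrangements allow, Spearman rho = 1, n = 8 arrays, two-sided). For GZMH the exact permutation test gave r = 0.95 (p = 0.00347, rho = 0.93 with p = 0.0104, n = 8), and for CCL5 r = 0.91 (p = 0.00694, rho = 0.81 with p = 0.0139, n = 8). These 3 passed after Benjamini-Hochberg adjustment over the 4 genes (exact permutation, adjusted p = 0.00694 for both granzymes and 0.00926 for CCL5, n = 8). Both probes of a gene share the RNA and the array, which favours such agreement, so it is given as a description only. Without the 2 arrays farthest from the median r was 0.98 for GZMB, 0.76 for GZMH and 0.92 for CCL5.

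No such relation was found between the 2 CD8A probes, whose centred values had a negative r that did not pass the test (r = -0.60, exact permutation p = 0.160, adjusted p = 0.160, rho = -0.36 with p = 0.438, n = 8 arrays, two-sided). Without the 2 arrays farthest from the median r was -0.53. Non-pregnant replicate 1 was the highest of its group on the brighter probe and the lowest on the dimmer one, and pregnant replicate 4 was the lowest of its group on the brighter probe and the highest on the dimmer one. The dimmer probe had a processed signal of 66.1 to 131 in pregnant and 137 to 203 in non-pregnant sows, against 791 to 2022 in pregnant and 1415 to 2055 in non-pregnant sows on the brighter one.

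No pair of the 4 genes passed a test of varying together from sow to sow. After group means were subtracted, the 6 pairs of genes had Pearson r between -0.77 and 0.33 on the brighter probes, and 0 of 6 pairs passed after Benjamini-Hochberg adjustment (exact permutation within groups, smallest adjusted p = 0.260, n = 8 arrays). CD8A had r = 0.31 with GZMB (exact permutation p = 0.595, rho = 0.33 with p = 0.521, n = 8), 0.10 with GZMH (p = 0.774, rho = 0.07 with p = 0.885) and 0.05 with CCL5 (p = 0.943, rho = 0.45 with p = 0.347). Without the 2 arrays farthest from the CD8A median, pregnant replicates 3 and 4, these were 0.57, 0.08 and -0.53. CCL5 had r = -0.28 with GZMB (exact permutation p = 0.542, rho = 0.10 with p = 0.866, n = 8) and 0.33 with GZMH (p = 0.470, rho = 0.19 with p = 0.698). Without the 2 arrays farthest from the median of the granzyme, these were -0.41 and 0.19. The adjusted p of these 5 pairs was 0.893 to 0.943 (exact permutation, n = 8). Slides and groups held 4 arrays each, too few for a correlation within one of them. With normexp all 6 pairs had a positive r, up to 0.81 for CD8A with CCL5 (exact permutation p = 0.0417, adjusted p = 0.198, n = 8), and again 0 of 6 passed after adjustment.

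Over the uncentred values, in which the difference that chose the genes takes part, r was 0.59 for CD8A with GZMB, 0.49 with GZMH and 0.49 with CCL5, 0.51 for GZMH with CCL5, 0.09 for GZMB with CCL5 and -0.29 for GZMB with GZMH. These are given as a description. On the dimmer probes the centred r of CD8A was -0.61 with GZMB and 0.60 with GZMH, against 0.31 and 0.10 on the brighter probes.

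GZMB and GZMH had the strongest relation, a negative one with pregnant replicate 3 and non-pregnant replicate 2 far out on opposite sides. The centred r was -0.77 (exact permutation p = 0.0434, adjusted p = 0.260, rho = -0.83 with p = 0.0208 and adjusted p = 0.125, n = 8 arrays, two-sided), so the relation passed singly and not after adjustment over the 6 pairs. On the dimmer probes r was -0.76. Pregnant replicate 3 had the highest GZMB of its group, 1.37 above the group mean, and the lowest GZMH, 1.11 below it, whereas non-pregnant replicate 2 had the lowest GZMB of its group, 0.90 below, and the highest GZMH, 0.74 above. In pregnant replicates 1, 2 and 4, GZMB ran 2.05, 1.38 and 1.05 while GZMH was nearly level at 3.54, 3.55 and 3.61. In non-pregnant replicates 1, 3 and 4, GZMB at 3.20, 2.89 and 3.43 went with GZMH at 3.99, 3.06 and 3.93, both lowest in replicate 3. Without the 2 arrays farthest from the GZMB median, pregnant replicates 2 and 4, r was -0.72. That choice kept pregnant replicate 3 and non-pregnant replicate 2, so it could not show how far r rests on them. An r without both of them was not taken. The correlation between GZMB and GZMH with 1 array left out ran from -0.93 without non-pregnant replicate 3 (exact permutation, adjusted p = 0.0417, n = 7) to -0.46 without pregnant replicate 3 (adjusted p = 0.635). It was -0.75 without pregnant replicate 2, -0.71 with slide means subtracted too, -0.51 with scaling on the array's median and 0.02 with normexp. Whether a probe of one granzyme also binds transcripts of the other was not tested.

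**Figure D2:**
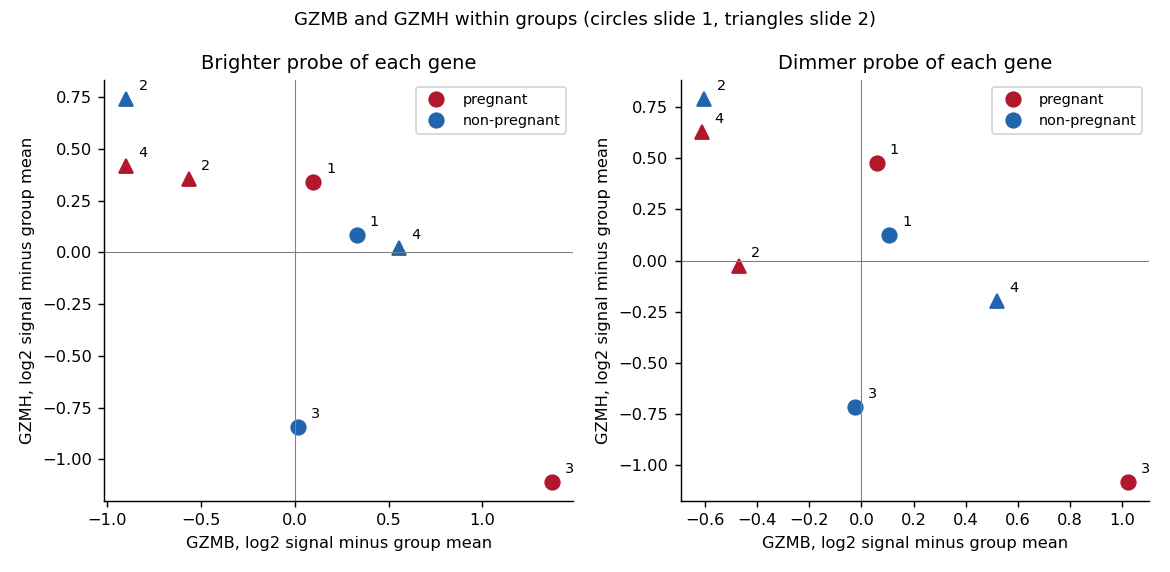
GZMH against GZMB in the 8 sows, each axis the log2 signal minus the mean of the sow's own group, for the brighter probes (left) and the dimmer probes (right). Numbers give the replicate, circles slide 1 and triangles slide 2. Pregnant replicate 3 lies at the lower right and non-pregnant replicate 2 at the upper left (r = -0.77 and -0.76 over all 8 sows). An r without both of them was not taken.

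**Figure D3:**
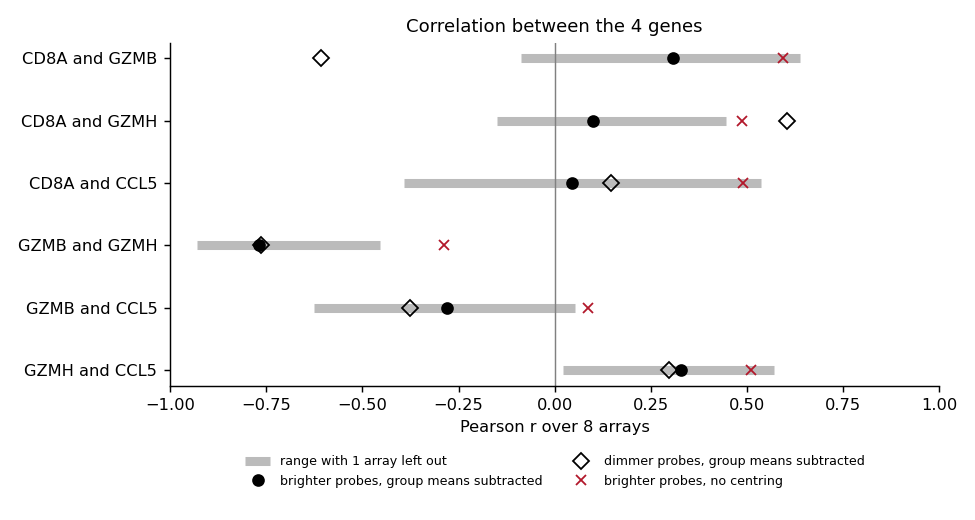
Pearson r over 8 arrays for the 6 pairs of genes, with filled circles for the brighter probes and diamonds for the dimmer probes after group means were subtracted, crosses for the uncentred values and bars for the range with 1 array left out. GZMB with GZMH is the one pair whose bar lies wholly below 0 (-0.93 to -0.46).

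Each of the 4 genes was set against 1816 other named genes, 1 probe each, by the Pearson r of group-centred values over the 8 arrays, as a description. Nearest to CD8A were CALCB (r = 0.94), B3GALNT1 (0.91), SCAMP1 (0.90), IFI30 (0.90) and ABHD5 (0.88), nearest to GZMB were KIT (0.82), VWA7 (0.79), TCAP (0.79), ADM (0.78) and CYTH4 (0.78), nearest to GZMH were PCSK2 (0.91), NAXE (0.88), DEFB1 (0.86), LDHA (0.85) and C4A (0.84), and nearest to CCL5 were CD1D (0.95), IL12RB2 (0.93), CCR10 (0.92), DEFB125 (0.92) and CIDEB (0.91). The 5 nearest genes of each held 0 of the other 3 genes. These are the highest of 1816 values over only 8 arrays, picked for being the highest, so nothing is read from them. The upper 5% of the 1816 genes began at r = 0.62 for CD8A, 0.51 for GZMB, 0.61 for GZMH and 0.81 for CCL5. GZMH ranked 1811 of 1816 in likeness to GZMB.

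The genes around the 4 were taken from lists of their pathway, each gene by its brightest kept probe. No gene of any list passed limma's test (0 genes, adjusted p = 1.00 for each gene named below), so their values are given beside the median of all 1817 named genes, a log2 fold change of -0.03, with 55.6% of them below 0. Of 47 list genes that the naming rule picked, 9 turned sign with 1 array left out and 32 kept their sign but moved by over 1.5 times. With normexp, 8 of 14 list medians turned sign, as those of the 4 genes did. Of 8 measured genes of the T cell receptor complex and its co-receptors, 8 lay below 0, with a median of -0.35, or -0.20 without pregnant replicate 2, -0.16 on slide 1, -0.54 on slide 2 and 0.37 with normexp. CD3D, a chain of the receptor complex, had -0.60 ± 0.27 (SE), SH2D1A, an adaptor of SLAM receptors, -0.46 ± 0.23, CD4, the co-receptor of helper T cells, -0.43 ± 0.31 and LCK, the kinase bound to CD4 and CD8, -0.42 ± 0.23. On the other kept probe CD3D gave -0.22 and LCK -0.07. CD3G gave -0.88 and CD247 -0.21 there, against -0.28 and -0.15 on the brightest probe. On the brightest probe the groups did not overlap for CD3D and SH2D1A, where this held for 0.66% of named genes. The list's mean level was 1.36 to 1.97 in pregnant and 1.88 to 2.17 in non-pregnant sows, with pregnant replicate 2 the lowest, and its summed signal was 41.2 to 57.8 times the 75th percentile in pregnant and 53.9 to 65.9 times in non-pregnant sows.

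Of 6 measured granule proteins and their processing partners, 4 lay below 0 and 2 above it, with a median of -0.11, or -0.29 without pregnant replicate 2, 0.14 on slide 1, -0.41 on slide 2 and 0.24 with normexp. GZMK, a tryptase of memory T cells, stood at 1.27, 0.77, 1.33 and 0.92 in pregnant and 2.25, 1.64, 0.75 and 1.78 in non-pregnant sows, a log2 fold change of -0.53 ± 0.34 (SE). GZMM, the granzyme of NK cells that cuts after methionine, stood at 1.16, 4.77, 3.17 and 0.95 in pregnant and 1.52, 2.98, 2.34 and 1.76 in non-pregnant sows. Its log2 fold change was 0.36 ± 0.78 (SE), and -0.39 without pregnant replicate 2, the highest sow. SERPINB9, the inhibitor that protects killer cells from their own granzyme B, had -0.26 ± 0.23 and CALR, the chaperone calreticulin, 0.17 ± 0.26. GZMA had -0.15 and LAMP1, a membrane protein of the granules, -0.07. Of the release machinery 2 genes were measured, RAB27A, which docks granules, at -0.27 ± 0.30 and AP3B1, which sorts proteins to them, at 0.33 ± 0.38. Their median was 0.03, or 0.22 without pregnant replicate 2, where RAB27A gave -0.08.

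Death ligands and effector cytokines had 7 genes above and 3 below 0, with a median of 0.03, or -0.05 without pregnant replicate 2. FAS, the death receptor, had -0.53 ± 0.43 (SE) on the brightest probe and -0.15 on its other kept probe. FADD, the adaptor below FAS, had -0.20 ± 0.31 and -0.18. TNFSF10, the death ligand TRAIL, had 0.25 ± 0.45 on the brightest probe, 0.08 on its other kept probe, and 0.01 on the brightest without non-pregnant replicate 2. LTA, lymphotoxin alpha, had 0.23 ± 0.34 on the brightest probe, -0.46 on its other kept probe, and -0.08 on the brightest without pregnant replicate 2. FASLG, which killer cells use beside granules, had -0.01, IFNG 0.04 and TNF 0.00.

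Among the chemokines near CCL5 and its receptors, 8 of 10 measured genes lay below 0, with a median of -0.22, or -0.12 without pregnant replicate 2 and with normexp 0.12. CCL4, a chemokine that activated T cells and macrophages release, had -0.63 ± 0.38 (SE), stood at -0.44 to 0.12 in pregnant sows and was higher only in non-pregnant replicates 1 and 2, at 1.07 and 1.33, against -0.21 and -0.06 in the other two. CXCL8, which attracts neutrophils, had -1.41 ± 0.98, but -2.10 when pregnant replicate 4 was left out and -0.70 when non-pregnant replicate 2 was. XCL1, a chemokine of CD8 T cells and NK cells, had -0.27 ± 0.36, and 0.00 without pregnant replicate 4, and CCL3L1 -0.23 ± 0.28. Of the receptors of CCL5, CCR1 had 0.17 on the brightest probe, -0.13 on its other kept probe, and -0.11 on the brightest without non-pregnant replicate 2. CCR3 had -0.22.

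Of 9 measured transcription factors, 6 lay below 0, with a median of -0.16, or -0.03 without pregnant replicate 2 and 0.56 with normexp. GATA3 had -0.41 ± 0.31 (SE), NFATC2 -0.37 ± 0.31 and ETS1 -0.27 ± 0.24, all of which act in T cells, and STAT5B, which acts below cytokine receptors, 0.23 ± 0.24. On the other kept probe GATA3 gave -0.30, ETS1 -0.39 and STAT5B 0.03. The 7 measured cytokines and cytokine receptors of cytotoxic cells had a median of 0.03, with IL15, which keeps NK cells and memory CD8 T cells alive, at 0.41 ± 0.35, IL7R at -0.19 ± 0.28, IL2RG, the shared receptor chain, at 0.16 ± 0.23 and IL18R1 at -0.10 ± 0.32. Their other kept probes gave 0.37 for IL15, -0.04 for IL7R, 0.18 for IL2RG and -0.14 for IL18R1. Of 7 measured NK cell receptors and adaptors, 4 lay below 0, with a median of -0.08, or -0.18 without pregnant replicate 2 and 0.42 with normexp. CD69, an early activation marker, had -0.60 ± 0.53, HCST, the adaptor DAP10, -0.44 ± 0.28, KLRK1, the receptor NKG2D that signals through it, -0.29 ± 0.35 and FCER1G, an adaptor of Fc receptors, 0.24 ± 0.28. NCR1, a defining receptor of NK cells, had -0.08.

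Markers of other blood cells had no gene past the test either, and their part in the lower values of the 4 genes was not tested. Summed signals, in multiples of the 75th percentile, add different probes and are led by the brightest one of a list. All 8 measured genes of monocytes and macrophages had a positive log2 fold change (median 0.38, and 0.37 without pregnant replicate 2), with LYZ at 0.65 ± 0.29 (SE), CD163 at 0.64 ± 0.40 and TLR4 at 0.43 ± 0.27. On slide 1 and slide 2 alone, LYZ had 0.39 and 0.90, CD163 1.18 and 0.11 and TLR4 0.40 and 0.47. Not all 8 genes were positive on each slide alone. The mean level of the 8 genes was 1.98 to 2.17 in pregnant and 1.45 to 1.90 in non-pregnant sows. How often the mean of a list lies apart between the groups was not examined, and the groups overlapped for each of the 8 genes singly. Their summed signal was 65.0 to 79.9 in pregnant and 46.5 to 59.3 in non-pregnant sows. Of 8 neutrophil genes 5 were positive (median 0.19, and -0.08 without pregnant replicate 2), and the median was 0.56 on slide 1 and -0.27 on slide 2. NPG4 had 0.98 ± 0.55 (SE), 0.37 without pregnant replicate 2, and 0.18 to 0.75 on its other kept probes. PMAP-36 had 0.77 ± 0.57, and 0.29 without pregnant replicate 2, and MMP9 -1.09 ± 0.76. The mean level of the neutrophil genes was 0.79 to 1.91 in pregnant and 0.58 to 1.55 in non-pregnant sows. Their summed signal, of which MMP9 was the largest part, was 46.4 to 219 in pregnant and 98.7 to 510 in non-pregnant sows. Platelet genes, of interest because platelets carry CCL5, were negative in 5 of 6 (median -0.22), with SELP at -0.53 ± 0.30, ITGA2B at -0.32 ± 0.31 and PPBP at -0.26 ± 0.40. Their median was -0.51 on slide 1, 0.10 on slide 2 and 0.34 with normexp, and their summed signal, nearly all of it ITGB3, was 1357 to 3074 in pregnant and 1617 to 2294 in non-pregnant sows.

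The remaining lists were short. All 3 measured B cell genes were negative, with CD79A, a chain of the B cell receptor complex, at -0.34 ± 0.25 (SE) and CD40 at -0.17 ± 0.28, and with a mean level of 0.98 to 1.41 in pregnant and 1.06 to 1.76 in non-pregnant sows. Of 3 erythroid genes 2 were negative, KLF1 at -0.23 ± 0.50 and HBE1 at -0.22 ± 0.75, and EPOR was at 0.22 ± 0.32. The erythroid median was -0.22, or -0.67 without pregnant replicate 2, with a summed signal, nearly all of it HBE1, of 9.23 to 133 in pregnant and 20.2 to 60.3 in non-pregnant sows. Of the regulatory T cell genes, CTLA4, a brake on T cell activation, had -0.50 ± 0.23. Its groups did not overlap, where this held for 0.66% of named genes. Its level was low, at -2.77 to -2.33 in pregnant and -2.32 to -1.82 in non-pregnant sows. FOXP3 had 0.02 ± 0.36, or -0.33 without pregnant replicate 2. The median of these 2 genes was -0.24, or -0.38 without that sow, -0.68 with normexp and -0.08 with local background subtracted. Their summed signal was 0.280 to 0.497 in pregnant and 0.327 to 0.456 in non-pregnant sows. IL2RA and CD163L1 of that list did not pass the filter on dim probes. Every other gene measured in these cell type lists was well above background on all 8 arrays, with the exception of PMAP-36, which was so on 7.

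**Figure D4:**
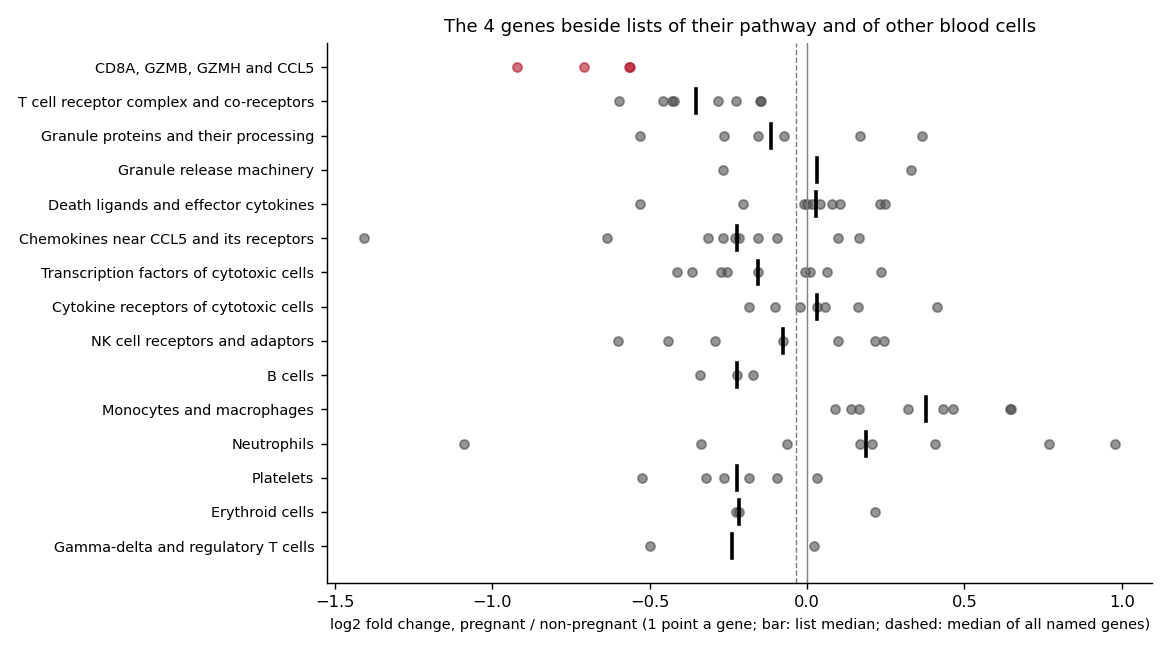
Log2 fold changes, pregnant over non-pregnant (horizontal axis), of CD8A, GZMB, GZMH and CCL5 (red) and of the measured genes of 14 lists, 1 point a gene, with a bar at each list's median and a dashed line at the median of all named genes (-0.03). The 8 T cell receptor genes lie below 0, the 8 monocyte and macrophage genes lie above 0, and granule proteins lie on both sides.

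**Figure D5:**
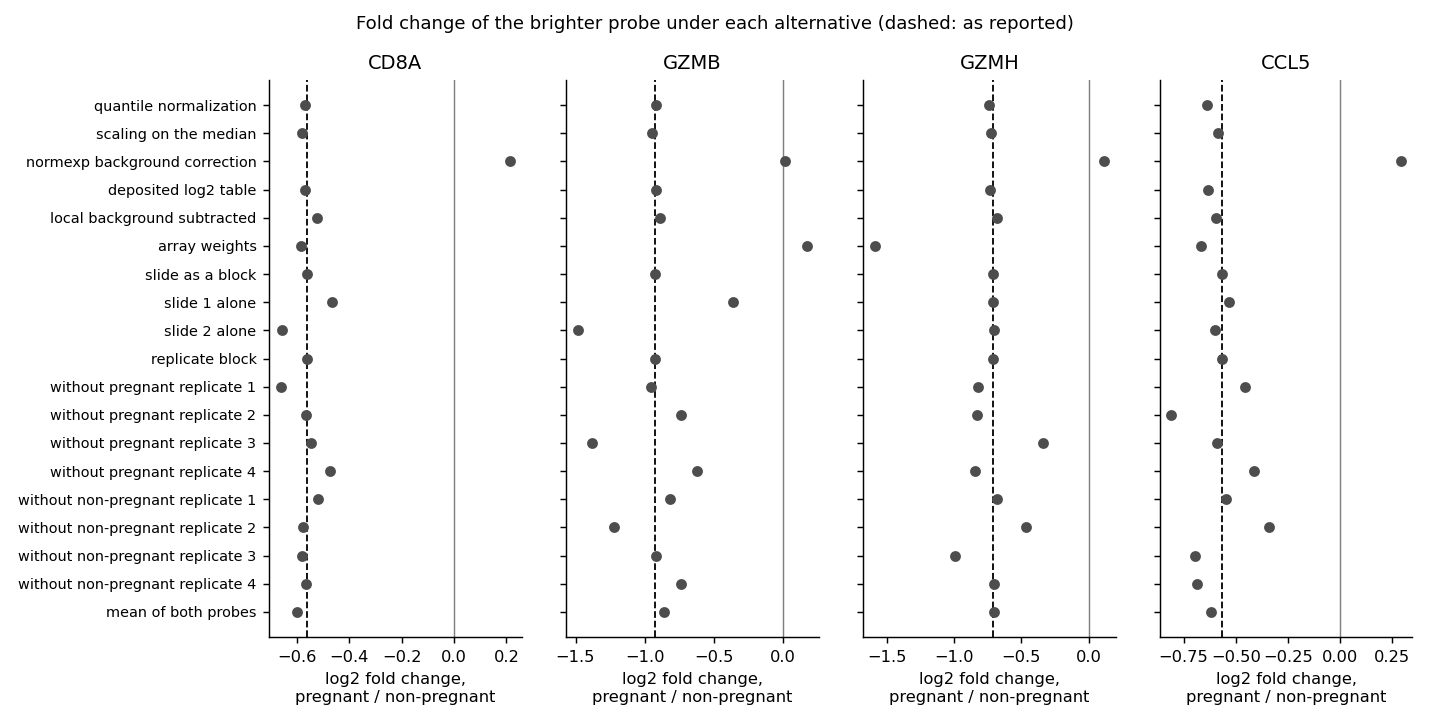
Log2 fold change, pregnant over non-pregnant (horizontal axes), of the brighter probe of each gene under 19 alternatives (rows), with a dashed line at the value reported and a grey line at 0. CD8A, GZMH and CCL5 are below 0 in all rows but normexp background correction (0.21 for CD8A), and GZMB is above 0 there and with array weights (0.18).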

How the data were processed

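The members and lists were chosen with earlier results of these data known. Per the file headers, scanning software was Feature Extraction 10.7.3.1 (version 10.7 in the submitters' processing notes). In each array's deposited file the processed signal is a background-subtracted spot intensity with no normalization between arrays. The authors also deposited a log2 table with equal quartiles in all columns (2.19, 5.03 and 7.76). It followed the processed signal of its own array (lowest r = 0.999). The sources used here do not give its centring or software. From the scanner values, each array's 75th percentile was subtracted from log2 signals, control and outlier spots were left out, and 215 probes with every spot marked on some array were dropped. The dim-probe filter retained 26481 probes that stood well above background in all 4 sows of at least 1 group. Member spots that numbered 2, both in non-pregnant sows, carried a flag on their local background and were kept.

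Of 43603 probes, 5436 were named through RefSeq transcripts in a table of Sscrofa11.1, and a gene was represented by its brightest kept probe. Lists were matched by symbol alone. Groups were compared with limma 3.58.1 under R 4.3.3 in two-sided tests, adjusted over all probes after Benjamini and Hochberg, with a threshold of 0.05. Alternatives covered scaling, background correction, the filter, slide, array weights and left-out arrays. Normexp was planned on the mean spot signal and ran on the median one, since the mean was not among the columns used here. Correlations used exact permutations of sows within groups (576 arrangements) in numpy 2.4.6 and pandas 2.3.3. Script checks ran on made-up values with known changes. Genes were named by rule: the 4 members, up to 4 genes of smallest unadjusted p from each pathway list, up to 3 from each cell type list, and the 5 genes most like each member. Remaining list genes given by value alone (CD3E, CD3G, CD247, FASLG, IFNG, TNF, GZMA, LAMP1, NCR1, CCR1 and CCR3) fall outside it and were chosen for their role after the values were seen. P-values measure the spread between sows, each with 1 array, and the number of arrays limits the precision. No sequences of the genes or probes were used here. Some list genes that the rule or a role would name are not reported here.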

Additional observations from a re-analysis of the deposited data

Results flagged for a closer look

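In groups of 4 sows, 8 of 110 groups checked (55 probes in each group) had 1 sow far from the other three by Dixon's criterion, which chance alone meets in about 1 in 20 groups. GZMH was at 2.09 in pregnant replicate 3, against 3.54 to 3.61 in the other pregnant sows. On its dimmer probe that sow was lowest too but did not meet the criterion. CD40 and CD79A were highest in pregnant replicate 1, at 3.83 and 1.06, against 3.43 to 3.49 and 0.60 to 0.66 in the other pregnant sows. FOXP3 was at -1.52 in pregnant replicate 2, against -3.01 to -2.84, and GATA3 at 3.18 in the same sow, against 3.94 to 4.04. Among non-pregnant sows, IL2RG was at 0.13 in replicate 4, against -0.19 to -0.18, SELP at 4.02 in replicate 1, against 3.04 to 3.16, and XCL1 at -1.41 in replicate 3, against -0.57 to -0.46.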

How the results depend on the processing

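Limma called 0 probes under all 21 alternatives (smallest adjusted p of any 0.160, with array weights, where 1040 higher and 1046 lower probes had an unadjusted p under 0.05). The log2 fold changes of CD8A, GZMB, GZMH and CCL5 kept their sign under all alternatives except normexp background correction, where the CD8A log2 fold change was 0.21, the GZMB log2 fold change 0.020, the GZMH log2 fold change 0.11 and the CCL5 log2 fold change 0.29, and array weights, where GZMB was 0.18. GZMH was -1.59 with array weights. The background mean fitted by normexp ran from -699 to -2.81 in pregnant and -811 to -92.3 in non-pregnant arrays, so unequal amounts were added to the arrays. The median of all probes was -0.20 with it, and the correlation with the processed signal was 0.700 on non-pregnant replicate 4. With the local background subtracted instead, an alternative chosen after seeing the data, the 4 genes gave -0.52, -0.89, -0.69 and -0.59. Array weights gave pregnant replicate 3 a weight of 4.94, against 0.339 to 0.605 for the other pregnant arrays, and their fit stopped before convergence.

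With 1 array left out the log2 fold change was -0.66 to -0.47 for CD8A, -1.38 to -0.62 for GZMB, -0.99 to -0.34 for GZMH and -0.81 to -0.34 for CCL5. The correlation between GZMB and GZMH was 0.024 with normexp, and the correlation between GZMB and CCL5 was 0.56. With normexp the correlation between CD8A and GZMB was 0.76, the correlation between CD8A and GZMH 0.63, the correlation between CD8A and CCL5 0.81 and the correlation between GZMH and CCL5 0.68. The correlation between CD8A and GZMB was -0.26 with slide means subtracted too. The correlation between CD8A and GZMH was -0.074 with quantile normalization, -0.11 with the deposited table and -0.10 with local background subtracted. The correlation between CD8A and CCL5 was -0.0098 with the deposited table and -0.24 with local background subtracted. With 1 array left out r ran from -0.086 to 0.64 for CD8A with GZMB, -0.15 to 0.45 for CD8A with GZMH, -0.39 to 0.54 for CD8A with CCL5, -0.93 to -0.46 for GZMB with GZMH, -0.63 to 0.052 for GZMB with CCL5 and 0.022 to 0.57 for GZMH with CCL5. Where no cause is given above, the cause was not tested.

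Replicate numbers were no established pairs: sows of the same number had correlated deviations of 0.22, 0.48, 0.43 and -0.12, against a mean of -0.08 for different numbers, and 4 of 8 sows correlated best with their own number. The deviations were taken from group means, which ties the mean for different numbers to the same-number values, so it is no independent baseline. Sows of the same number also lay on the same slide. With the replicate block limma called 0 probes, with 578 higher and 219 lower at an unadjusted p under 0.05, and the slide block called 0 as well. The replicate block gave an SE of 0.23 for CD8A, 0.45 for GZMB, 0.26 for GZMH and 0.25 for CCL5, against 0.23, 0.51, 0.44 and 0.35 without it, and the difference between sows of the same number was below 0 in 4 of 4 numbers for CD8A, GZMH and CCL5 and in 3 of 4 for GZMB. Among list medians and list genes, 42 of 1210 values moved by more than 1 SD, 31 of them with normexp.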
